A study of Mus musculus with 16 samples.

Results

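The enzymes and carriers that take glucose to pyruvate, and pyruvate to lactate or into the mitochondrion, were followed in mouse embryonic stem (ES) cells leaving the naive state, in which cells resemble the unimplanted epiblast. The set has 34 genes, chosen by symbol as the core steps of glycolysis and of pyruvate use, out of 27179 genes in the table. It holds the glucose transporters Slc2a1 and Slc2a3, the hexokinases Hk1 and Hk2, Gpi1, the phosphofructokinases Pfkl, Pfkm and Pfkp, and the enzymes Pfkfb1 to Pfkfb4 that set the level of their activator. It goes on with Aldoa, Aldoc, Tpi1, Gapdh, Pgk1, Pgam1, Eno1, Eno2, Eno3 and Pkm, which complete the pathway, and with Ldha, Ldhb, Slc16a1 and Slc16a3, which make lactate and carry it across the membrane. Pdk1 to Pdk4, Pdha1, Pdhb, Mpc1 and Mpc2 control or carry out the entry of pyruvate into mitochondrial oxidation. All 34 passed the filter on low counts that left 14288 genes for testing.

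RNA was sequenced in 16 libraries, 2 for each of 8 groups. The cells had been moved from serum/LIF medium into 1 of 2 maintenance media for 3 passages and were used for at most 9. Each held leukaemia inhibitory factor (LIF) together with 2i, the pair of inhibitors CHIR99021 at 3 uM, which blocks GSK3, and PD0325901 at 1 uM, which blocks MEK. The 2i/LIF medium was serum-free, and serum/LIF+2i held 10% serum. Cells at 0 h were still in their maintenance medium. Cells at 12, 24 and 40 h had been transferred to serum-free medium lacking 2i and LIF, which starts the exit. The exit medium held 2 mM glutamine in both arms. Cells kept in 2i/LIF left in their own base medium, while those from serum/LIF+2i changed to a mix of glutamine-free DMEM and Neurobasal. That made the change of medium at exit larger for them. The media used at exit and the media used before it therefore cannot be told apart in a comparison between the arms. All groups were cultured with N-2 and B-27 supplements after exit. The line and clone are not given in the sources used here, nor whether the 2 libraries of a group came from separate cultures, so p-values measure the spread between these libraries.

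Total counts ran from 5931381 to 11142744 per library, of which the 34 genes took 0.756 to 1.19%. Replicates of a group correlated at Pearson's r of 0.991 to 0.995 across genes. Defining markers matched the label. The summed level of 8 naive genes was 4946 to 5308 CPM at 0 h and 159 to 173 CPM at 40 h. That of 5 formative genes went from 154 to 182 CPM up to 1953 to 2792 CPM. The core factors Pou5f1 and Sox2 stayed expressed, but their sum rose and then fell. For 2i/LIF the sum was 985 to 1013 CPM at 0 h, 1241 to 1253 at 12 h and 776 to 778 at 40 h. For serum/LIF+2i it was 1097 to 1124 CPM, 1344 to 1366 and 815 to 826 at those times. A sum does not show how each factor moved. CPM are counts scaled to a common library size, after trimmed-mean scaling. Primitive endoderm markers summed to at most 7.16 CPM and fibroblast markers to at most 16.5 CPM in every library, with 0 to 3 of 5 and 1 or 2 of 5 at or under 3 counts in a group. Neural markers went from 0.759 to 4.85 CPM at 0 h to 27.2 to 56.5 CPM at 40 h, mesendoderm markers went from 21.9 to 40.0 CPM down to 2.76 to 4.45 CPM, and trophoblast markers from 14.6 to 19.8 CPM down to 2.99 to 3.97 CPM. Their part in the results was not tested. In bulk RNA, fewer cells expressing a gene and less RNA of it per cell cannot be told apart.

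Glycolysis splits glucose into pyruvate in a phase that spends ATP, ending with the cleavage by aldolase, and a phase that returns it, ending with pyruvate kinase. Many steps are served by isozymes, products of separate genes that differ in affinity, regulation or location, so a cell can change how it runs a step by changing the gene it uses. Pyruvate is either reduced to lactate and exported together with a proton, or carried into the mitochondrion and converted to acetyl-CoA by pyruvate dehydrogenase, which the PDK kinases switch off. Naive mouse ES cells are known to use both routes, and the primed state that follows is known for a greater reliance on glycolysis.

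Several of these genes are textbook targets of hypoxia-inducible factors (HIF), whose core recognition letters are ACGTG or GCGTG. Promoters are shown for Slc2a1, Slc16a3 and Pdk1, which rose in both media, for Ldha, which rose in 2i/LIF and fell in serum/LIF+2i, and for Hk1, the gene with the largest fall among those with a promoter window. Each is the 150 bases before a listed transcription start, 5′ to 3′ on the strand of the gene, from RefSeq on GRCm38.p6, with those letters, read on either strand, in capitals. Ldha, Pdk1 and Hk1 have 2 listed starts each, of which 1 is used. The stretches are chr4:119108595-119108744 on the plus strand for Slc2a1, chr7:46845654-46845803 on the plus strand for Ldha, chr11:120948917-120949066 on the plus strand for Slc16a3, chr2:71873074-71873223 on the plus strand for Pdk1 and chr10:62340422-62340571 on the minus strand for Hk1.
Slc2a1: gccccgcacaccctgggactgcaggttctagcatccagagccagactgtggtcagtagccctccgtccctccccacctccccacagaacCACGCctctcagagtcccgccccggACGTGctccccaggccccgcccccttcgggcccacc
Ldha: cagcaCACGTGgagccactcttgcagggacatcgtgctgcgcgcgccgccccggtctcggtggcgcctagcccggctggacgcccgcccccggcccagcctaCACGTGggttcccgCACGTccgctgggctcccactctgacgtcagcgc
Slc16a3: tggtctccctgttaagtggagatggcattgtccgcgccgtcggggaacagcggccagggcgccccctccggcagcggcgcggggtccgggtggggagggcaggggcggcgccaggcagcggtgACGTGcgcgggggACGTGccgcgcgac
Pdk1: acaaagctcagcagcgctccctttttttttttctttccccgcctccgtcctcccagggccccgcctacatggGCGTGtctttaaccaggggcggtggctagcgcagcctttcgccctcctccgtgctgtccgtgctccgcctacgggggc
Hk1: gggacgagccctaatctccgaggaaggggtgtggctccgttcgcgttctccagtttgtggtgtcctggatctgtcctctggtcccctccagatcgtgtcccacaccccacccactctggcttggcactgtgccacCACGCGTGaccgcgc
Promoter windows of 300 bases, 250 before and 50 after the start, were matched for 33 of the 34 genes, all but Slc2a3. Searching both strands, ACGTG was in 22 of the 53 windows of these genes (41.51%), against 19.62% of all 32851 windows. GCGTG was in 56.6% of them against 32.39% of all windows, and CACGTG, which contains ACGTG, in 11.32% against 7.15%. Genes with a match lay on both sides of the results: Ldha and Slc16a3 hold ACGTG, and so does a 300-base window of Hk1, although Hk1 RNA fell. The shorter Hk1 stretch printed above holds GCGTG on both strands and no ACGTG. The letters describe the sequence only.

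Within each medium, the exit effect is the change from 0 h to a later time. Every adjusted p below is from edgeR's quasi-likelihood F test, two-sided, with Benjamini-Hochberg adjustment over 14288 genes, and a gene is called at an adjusted p under 0.05. Values after ± beside a log2 fold change are standard errors. In 2i/LIF, 19 of the 34 genes were called at 12 h, 6 higher and 13 lower, beside 44.7% of all genes tested (21% and 23.7% by direction). At 24 h 24 were called, 14 higher and 10 lower, beside 58.8% (29.2% and 29.6%), and at 40 h 29, with 16 higher and 13 lower, beside 68.8% (34.1% and 34.7%). From serum/LIF+2i, 26 were called at 12 h, with 8 higher and 18 lower, beside 51.2% (25.3% and 25.9%). There were 27 at 24 h, with 6 higher and 21 lower, beside 64.4% (32.4% and 32%), and 29 at 40 h, with 11 higher and 18 lower, beside 70.5% (35.3% and 35.3%). Step by step, 22 genes changed from 12 to 24 h and 25 from 24 to 40 h in 2i/LIF, beside 35.1% and 46.7% of all genes. From serum/LIF+2i the steps had 23 and 20, beside 48.4% and 50.5%. At 40 h the 34 were thus called more often (85.3% in each medium) than all genes. That comparison was not matched for level of expression, and the 34 were chosen with earlier results of these data known. The median log2 fold change of the 34 genes at 40 h was 0.31 for 2i/LIF and -0.37 for serum/LIF+2i, against 0.0052 and -0.0032 over all genes. A called change of at least 1 on the log2 scale at 40 h was seen for 14 genes of 2i/LIF cells and 13 of cells from serum/LIF+2i, beside 29.4% and 29.5% of all genes.

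**Figure D1:**
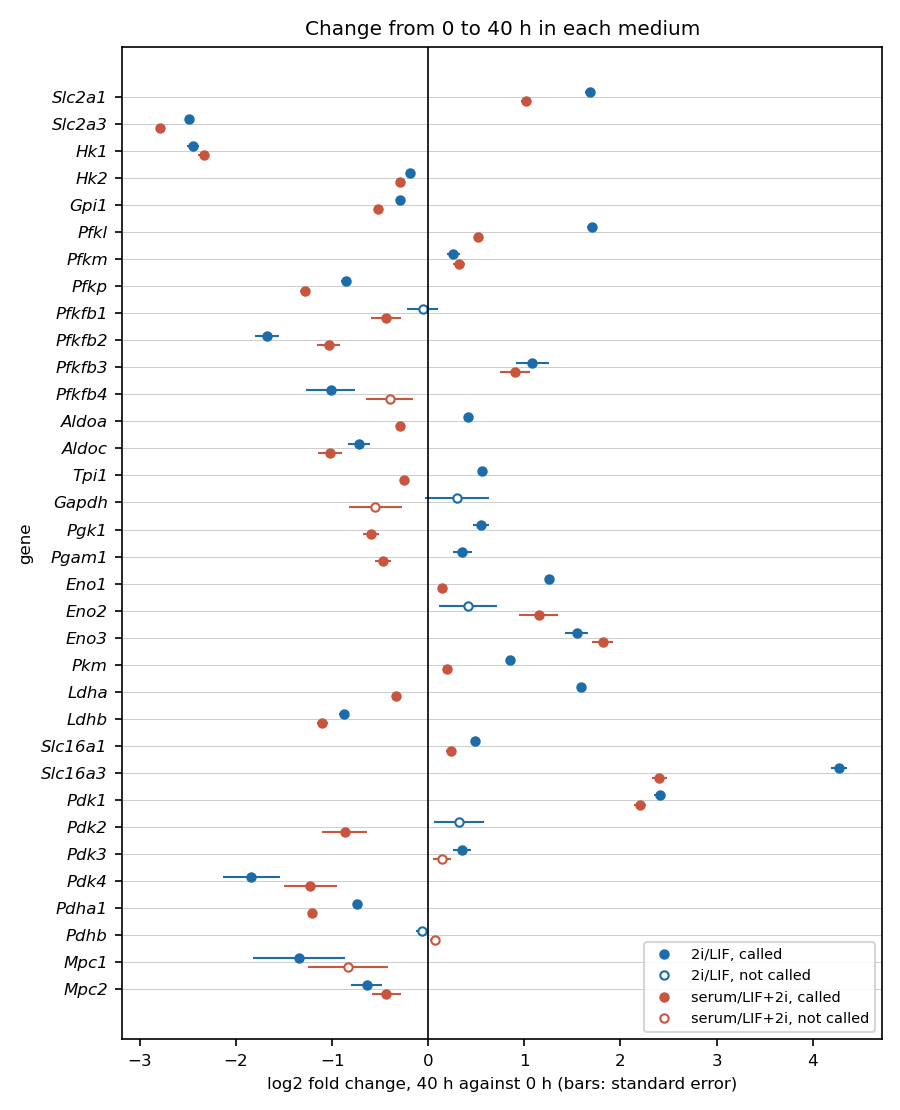
Log2 fold change from 0 to 40 h for each of the 34 genes (rows, in pathway order), in 2i/LIF (blue) and serum/LIF+2i (red), with bars for the standard error; filled points are called and open points are not. Slc16a3 and Pdk1 lie farthest to the right, Slc2a3 and Hk1 farthest to the left, and the red points of Aldoa, Tpi1, Pgk1, Pgam1 and Ldha lie left of 0 while the blue ones lie right of it.

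Joint calls were counted over both media. At 40 h 10 of the 34 genes were higher in both, beside 27% of all genes tested: Slc2a1, Pfkl, Pfkm, Pfkfb3, Eno1, Eno3, Pkm, Slc16a1, Slc16a3 and Pdk1. Another 11 were lower in both, beside 27.5%: Slc2a3, Hk1, Hk2, Gpi1, Pfkp, Pfkfb2, Aldoc, Ldhb, Pdk4, Pdha1 and Mpc2. The 5 genes Aldoa, Tpi1, Pgk1, Pgam1 and Ldha were higher in 2i/LIF and lower in serum/LIF+2i, beside 1.02%. Pdk3 was called higher, and Pfkfb4 and Mpc1 lower, in 2i/LIF alone; Eno2 was called higher, and Pfkfb1 and Pdk2 lower, in serum/LIF+2i alone. Gapdh and Pdhb were called in neither at 40 h.

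**Figure D2:**
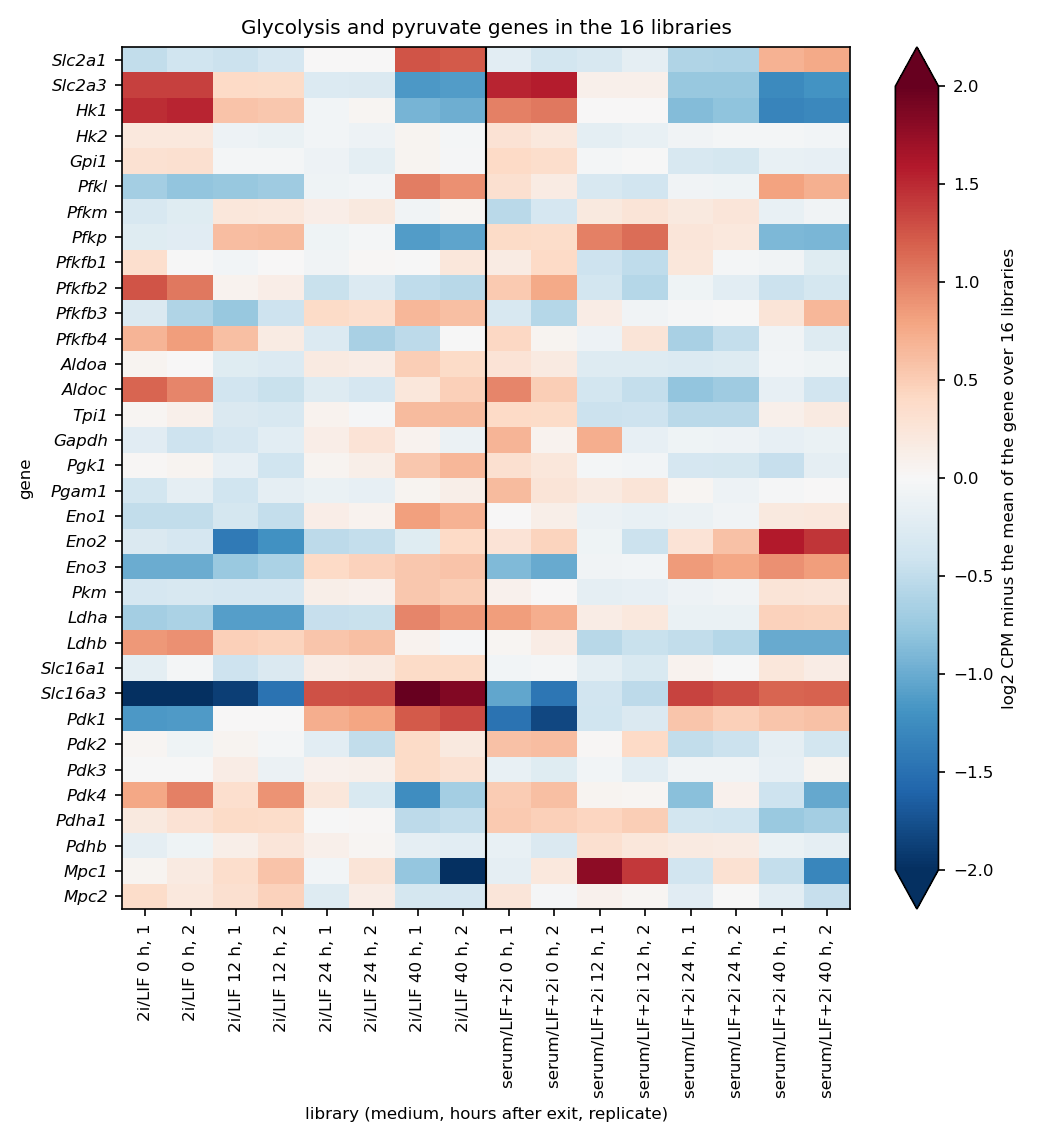
Log2 CPM of each gene (rows) in each of the 16 libraries (columns; medium, hours after exit, replicate), minus the mean of that gene over the 16 libraries; colours are clipped at -2 and 2. Slc2a3 and Hk1 go from red at 0 h to blue at 40 h in both media, Slc16a3 and Pdk1 the other way, and the 2 libraries of a group have like colours for most genes, with Gapdh at 12 h in serum/LIF+2i as an exception.

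RNA of the 2 glucose transporters moved in opposite directions from 0 to 40 h. Protein and uptake were not measured. Slc2a3 (chr6:122727809-122802363 of GRCm38.p6) encodes GLUT3, a high-affinity transporter, and Slc2a1 (chr4:119108745-119137330) encodes GLUT1, the widely expressed transporter of basal uptake. In 2i/LIF, Slc2a3 stood at 1872 and 1879.9 CPM at 0 h, 958 and 953 at 12 h, 601 and 593 at 24 h and 329.8 and 336 at 40 h. Starting from serum/LIF+2i, it stood at 2100.0 and 2174 CPM at 0 h, 777 and 781 at 12 h, 430.5 and 432 at 24 h and 303 and 317 at 40 h. Each later pair lay below every earlier one, and its log2 fold change at 40 h was -2.49 ± 0.04 (adjusted p = 3.2e-93) in 2i/LIF cells and -2.79 ± 0.04 (adjusted p = 5.1e-99) in those from serum/LIF+2i. Slc2a1 in 2i/LIF stood at 139 and 149 CPM at 0 h, 144 and 155 at 12 h, 195 and 197 at 24 h and 468 and 455 at 40 h. With serum/LIF+2i as the start, Slc2a1 read 168 and 152 CPM at 0 h, 157 and 172 at 12 h, 129 and 126 at 24 h and 315 and 330.3 at 40 h. The 0 and 12 h libraries overlapped in each medium, and most of the rise came after 24 h, in serum/LIF+2i from a level that was lower at 24 h than at 0 h (-0.33 ± 0.05, adjusted p = 1.3e-08). Its log2 fold change at 40 h was 1.68 ± 0.05 (adjusted p = 1.2e-60) in 2i/LIF cells and 1.01 ± 0.05 (adjusted p = 3.4e-41) in those from serum/LIF+2i.

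Per unit of gene length the order of the pair turned over. The share of Slc2a1 in the summed counts per kilobase of both genes was 10.2 and 10.9% at 0 h, 18.8 and 20.03% at 12 h, 33.3 and 33.8% at 24 h and 68.6 and 67.5% at 40 h in 2i/LIF. From serum/LIF+2i it was 10.96 and 9.69% at 0 h, 23.7 and 25.3% at 12 h, 31.5 and 31.05% at 24 h and 61.6 and 61.6% at 40 h. Slc2a3 led in every library up to 24 h and Slc2a1 in all 4 libraries at 40 h. The sum of the pair fell over the same time, from 529.7 ± 4.17 to 263 ± 2.36 RPKM (CPM divided by gene length in kilobases; SD, n = 2) in 2i/LIF and from 602 ± 8.75 to 204 ± 6.83 RPKM in serum/LIF+2i. Shares at 0 and 40 h were compared with an exact permutation test, two-sided, that exchanges the libraries within each medium; its 36 arrangements cannot give a p below 0.0556, which is 0.0667 after adjustment over the 24 shares tested. Slc2a1 and Slc2a3 reached that smallest value, as did every share described as moving below unless stated. So did Aldoa and Aldoc with mean moves of 1.12 and -1.12 points, so reaching it does not tell large moves from small ones. In a family of 2 genes the shares are complements and have the same p. The same shares computed without dividing by gene length kept their direction. Which isozyme led did depend on gene length among the PFKFB enzymes, monocarboxylate transporters and PDK kinases, as given below.

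**Figure D3:**
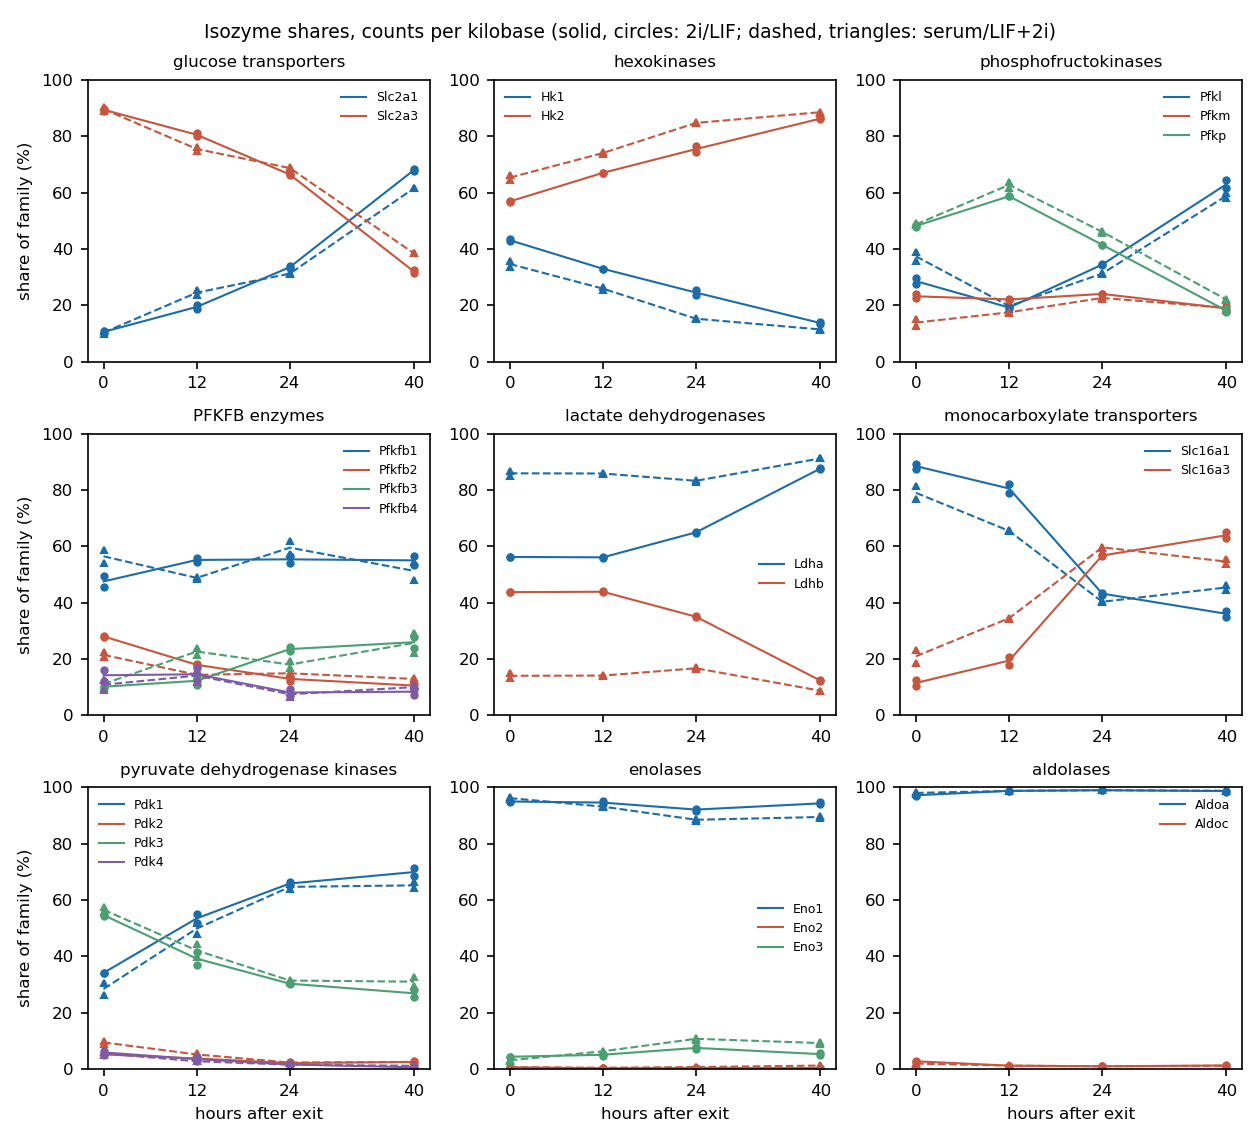
Share of each isozyme in its family (percent of the summed counts per kilobase) against hours after exit, 1 panel per family; points are libraries and lines join group means, solid with circles for 2i/LIF and dashed with triangles for serum/LIF+2i. By this share the leading isozyme changes in the glucose transporter, phosphofructokinase, monocarboxylate transporter and PDK panels, and Aldoa and Eno1 lead their panels throughout.

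Hexokinases trap glucose by phosphorylating it. Hk1 (chr10:62268855-62379920), the broadly expressed isozyme, read 244 and 249 CPM at 0 h, 129 and 126 at 12 h, 83.9 and 89.5 at 24 h and 45.96 and 44.4 at 40 h in 2i/LIF. Cells from serum/LIF+2i gave 176 and 181 CPM at 0 h, 87.9 and 87.3 at 12 h, 47.7 and 50.1 at 24 h and 34.99 and 35.7 at 40 h for Hk1. No pair overlapped the next, and Hk1 fell at every step in both media, to -2.45 ± 0.06 (adjusted p = 7.6e-69) in 2i/LIF cells and -2.34 ± 0.06 (adjusted p = 1.8e-66) in those from serum/LIF+2i at 40 h. Hk2, the isozyme associated with growth and insulin-sensitive tissue, moved little by comparison. It read 397 and 397 CPM at 0 h, 321 and 313 at 12 h, 332 and 321 at 24 h and 359 and 337 at 40 h in 2i/LIF. In the other arm Hk2 read 423 and 400.1 CPM at 0 h, 300.3 and 312 at 12 h, 329 and 336 at 24 h and 338 and 332 at 40 h. Its log2 fold change at 40 h was -0.19 ± 0.04 (adjusted p = 1.1e-05) in 2i/LIF cells and -0.30 ± 0.04 (adjusted p = 1.5e-11) in those from serum/LIF+2i. Hk1 went from 42.8 and 43.4% of the pair at 0 h to 13.5 and 13.9% at 40 h in 2i/LIF, and from 33.7 and 35.6% to 11.2 and 11.6% in serum/LIF+2i. Hk2 led in every library, and the summed level of the pair fell from 127 ± 0.901 to 73.1 ± 3.14 RPKM and from 114 ± 2.14 to 68.6 ± 0.598 RPKM. Gpi1, the isomerase of the next step, ranged from 321 to 542 CPM over the libraries and was lower at 40 h, at -0.29 ± 0.04 (adjusted p = 1.7e-11) in 2i/LIF cells and -0.53 ± 0.04 (adjusted p = 2.6e-26) in those from serum/LIF+2i on the log2 scale.

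**Figure D4:**
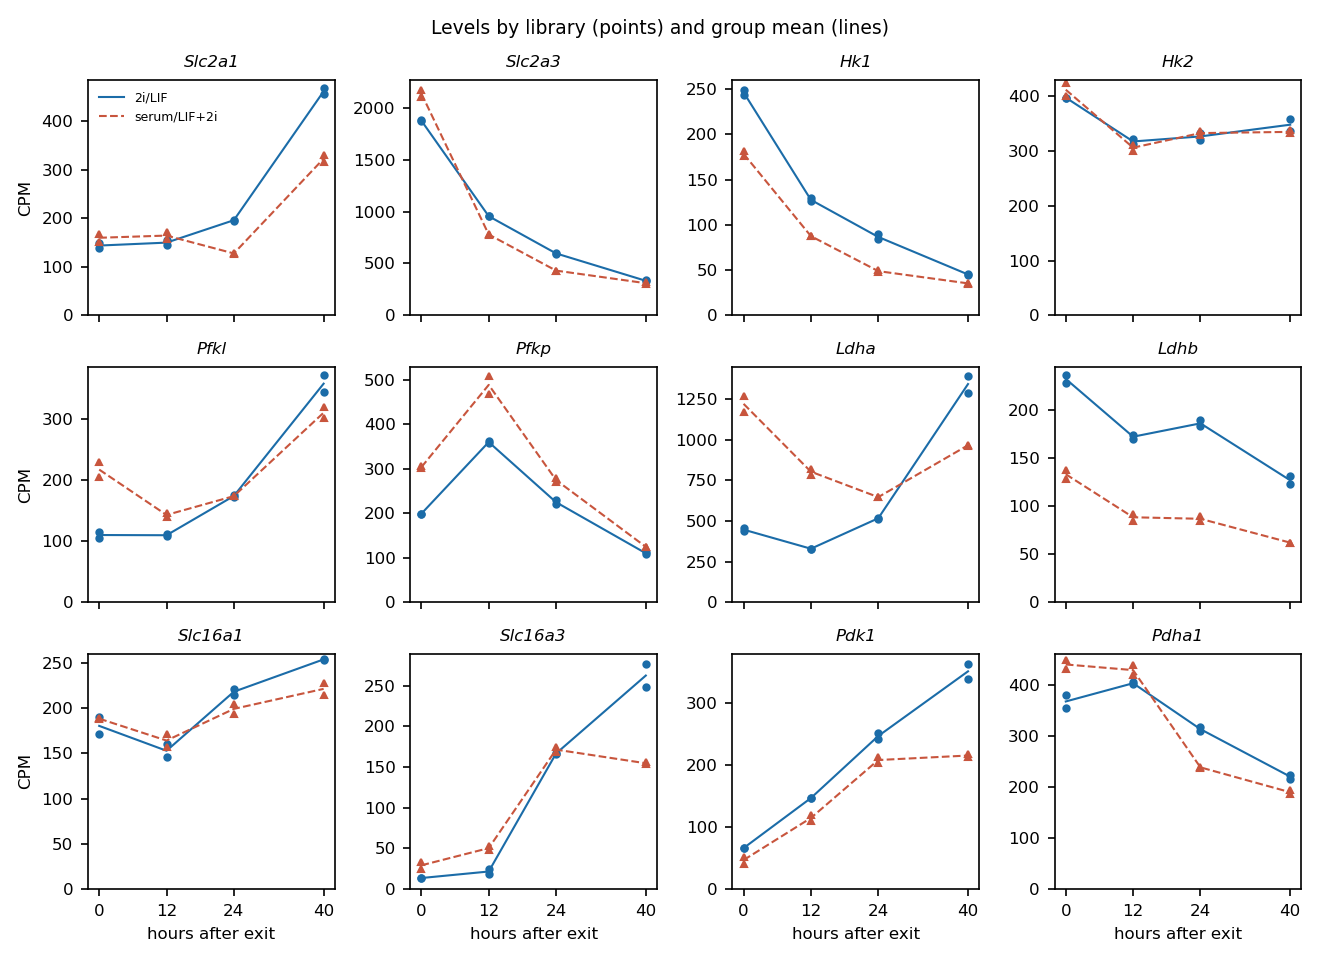
CPM of 12 genes against hours after exit; points are libraries and lines join the group means, blue with circles for 2i/LIF and red with triangles for serum/LIF+2i, each axis starting at 0. Pfkp peaks at 12 h in both media, Slc16a3 climbs between 12 and 24 h, and the lines of Ldha cross between 24 and 40 h.

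Phosphofructokinase commits sugar to glycolysis, as a tetramer of liver-type (Pfkl, chr10:77986947-78009807), muscle-type (Pfkm, chr15:98092589-98132447) and platelet-type (Pfkp, chr13:6579874-6649060) subunits. Pfkp passed through a peak, at 199 and 199 CPM at 0 h, 357 and 363 at 12 h, 221 and 229 at 24 h and 108 and 112 at 40 h in 2i/LIF. The peak was also present from serum/LIF+2i, at 306 and 301 CPM at 0 h, 468 and 509 at 12 h, 278 and 271 at 24 h and 125 and 124 at 40 h. At 12 h it was higher than at 0 h by 0.86 ± 0.04 (adjusted p = 3.6e-37) in 2i/LIF and 0.69 ± 0.04 (adjusted p = 1.2e-32) in serum/LIF+2i on the log2 scale. By 40 h its log2 fold change was -0.85 ± 0.05 (adjusted p = 7.4e-33) in 2i/LIF cells and -1.29 ± 0.04 (adjusted p = 2.5e-54) in those from serum/LIF+2i. Pfkp was the only gene of the 34 called higher at 12 h and then lower at both later steps in each medium; Pdha1 did so in 2i/LIF.

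Pfkl did the reverse. It read 114 and 106 CPM at 0 h, 108 and 111 at 12 h, 172 and 176 at 24 h and 372 and 344 at 40 h in 2i/LIF. With a higher start, Pfkl from serum/LIF+2i read 229 and 205 CPM at 0 h, 146 and 140.0 at 12 h, 174 and 173 at 24 h and 320.1 and 301 at 40 h. It fell to 12 h in serum/LIF+2i (-0.61 ± 0.05, adjusted p = 5.9e-21) and not in 2i/LIF, where the 0 and 12 h libraries overlapped, and then rose in both. At 40 h its log2 fold change was 1.70 ± 0.05 (adjusted p = 3.4e-57) in 2i/LIF cells and 0.52 ± 0.04 (adjusted p = 7.1e-20) in those from serum/LIF+2i. Pfkm read 71.2 and 75.5 CPM at 0 h, 104 and 103 at 12 h, 97.6 and 102 at 24 h and 85.04 and 91.04 at 40 h in 2i/LIF. Beside them stood Pfkm values of 61.4 and 70.6 CPM at 0 h, 102 and 106 at 12 h, 102 and 105 at 24 h and 80.6 and 84.4 at 40 h from serum/LIF+2i. Pfkm was highest at 12 and 24 h and remained above 0 h at 40 h, by 0.26 and 0.32 on the log2 scale. The share of Pfkl was 29.6 and 27.6% at 0 h, 19.1 and 19.4% at 12 h, 34.6 and 34.3% at 24 h and 64.6 and 61.5% at 40 h in 2i/LIF. The Pfkl share from serum/LIF+2i was 38.9 and 35.9% at 0 h, 20.7 and 18.8% at 12 h, 31.3 and 31.3% at 24 h and 59.8 and 57.97% at 40 h. Pfkp led in all libraries up to 24 h, with 58.7 and 58.8% and, from serum/LIF+2i, 61.7 and 63.8% at 12 h, and Pfkl led in all 4 at 40 h. Pfkm held 22.4 and 23.98% at 0 h and 17.97 and 19.8% at 40 h in 2i/LIF, with 12.7 and 15.05% and 18.4 and 19.8% in serum/LIF+2i, and its share went down in the one and up in the other (exact permutation p = 0.8333 over both, where 0.0556 is the smallest possible).

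The bifunctional PFKFB enzymes make and remove the small activator of phosphofructokinase. Pfkfb3, the isozyme with the strongest bias towards making it, read 9.65 and 7.75 CPM at 0 h, 6.99 and 8.82 at 12 h, 15.4 and 14.9 at 24 h and 18.7 and 17.9 at 40 h in 2i/LIF. For serum/LIF+2i the Pfkfb3 values were 9.40 and 7.93 CPM at 0 h, 13.1 and 11.3 at 12 h, 11.6 and 11.7 at 24 h and 14.05 and 18.6 at 40 h. It was higher at 40 h, at 1.08 ± 0.17 (adjusted p = 1.3e-08) in 2i/LIF cells and 0.90 ± 0.16 (adjusted p = 3.4e-07) in those from serum/LIF+2i. Pfkfb2 read 46.5 and 40.6 CPM at 0 h, 20.6 and 21.5 at 12 h, 14.3 and 16.1 at 24 h and 13.8 and 13.3 at 40 h in 2i/LIF. Serum/LIF+2i gave 28.1 and 33.2 CPM at 0 h, 15.1 and 13.1 at 12 h, 18.5 and 16.8 at 24 h and 14.6 and 15.3 at 40 h for Pfkfb2. Its log2 fold change was -1.68 ± 0.12 (adjusted p = 3.2e-25) in 2i/LIF cells and -1.04 ± 0.12 (adjusted p = 4.4e-14) in those from serum/LIF+2i. Exons of Pfkfb2 overlap those of Yod1 on the other strand and of a predicted gene on its own strand. Pfkfb4 was low, at 7.24 and 8.05 CPM at 0 h, 6.85 and 5.08 at 12 h, 3.75 and 2.89 at 24 h and 3.13 and 4.48 at 40 h in 2i/LIF. Pfkfb4 from serum/LIF+2i read 6.02 and 4.70 CPM at 0 h, 4.19 and 5.43 at 12 h, 2.88 and 3.26 at 24 h and 4.31 and 3.77 at 40 h. It was called lower at 40 h in 2i/LIF (-1.02 ± 0.25, adjusted p = 2.4e-04) and its change of -0.40 ± 0.25 in serum/LIF+2i was not called (adjusted p = 1.4e-01).

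Pfkfb1 read 14.8 and 11.7 CPM at 0 h, 11.4 and 11.8 at 12 h, 11.2 and 12.01 at 24 h and 11.6 and 13.7 at 40 h in 2i/LIF. Its values from serum/LIF+2i were 13.2 and 15.6 CPM at 0 h, 8.79 and 8.30 at 12 h, 13.8 and 11.4 at 24 h and 11.2 and 9.97 at 40 h. The libraries of 2i/LIF overlapped between 0 and 40 h; in serum/LIF+2i the log2 fold change was -0.44 ± 0.15 (adjusted p = 7.9e-03), a call that was lost without replicate 2 of 0 h (adjusted p = 0.15), without replicate 2 of 40 h (0.071) and with DESeq2 (0.071). Per length Pfkfb1 led the 4 in the means of every group, with shares of 49.4 and 45.7% at 0 h and 53.4 and 56.6% at 40 h in 2i/LIF, and 54.2 and 58.8% and 54.4 and 48.2% in serum/LIF+2i. By mean CPM, Pfkfb2 led at 0 h, at 43.5 against 13.3 for Pfkfb1 in 2i/LIF and 30.6 against 14.4 from serum/LIF+2i. Pfkfb3 led at 40 h by that measure, at 18.3 against 12.7 for Pfkfb1 and 16.3 against 10.6. Behind Pfkfb1, the order per length changed. Pfkfb2 went from 27.8 and 28.3% to 11.3 and 9.83% in 2i/LIF and from 20.6 and 22.4% to 12.7 and 13.2% in serum/LIF+2i. Pfkfb3 went from 10.5 and 9.86% to 27.9 and 24.1% and from 12.6 and 9.75% to 22.2 and 29.2%. The exact permutation p was 0.7222 for the share of Pfkfb1 and 0.1667 for that of Pfkfb4, above the smallest possible 0.0556.

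Aldoa, Tpi1, Pgk1 and Pgam1 moved in opposite directions in the 2 media. Aldolase A, the main isozyme of the cleavage step, read 1408 and 1373 CPM at 0 h, 1152 and 1124 at 12 h, 1541 and 1513 at 24 h and 1913 and 1785 at 40 h in 2i/LIF. From serum/LIF+2i Aldoa read 1642 and 1537 CPM at 0 h, 1134 and 1138 at 12 h, 1126 and 1140.3 at 24 h and 1308 and 1284 at 40 h. It dipped at 12 h in both, then passed its 0 h level in 2i/LIF, with log2 fold changes at 40 h of 0.41 ± 0.03 (adjusted p = 1.6e-21) in 2i/LIF cells and -0.29 ± 0.03 (adjusted p = 9.6e-14) in those from serum/LIF+2i. Tpi1, which interconverts the 2 triose phosphates, read 399.8 and 418 CPM at 0 h, 318 and 312 at 12 h, 409.8 and 383 at 24 h and 603 and 599.9 at 40 h in 2i/LIF. Serum/LIF+2i gave 514 and 505 CPM at 0 h, 288 and 292 at 12 h, 267 and 266 at 24 h and 418 and 441 at 40 h for Tpi1. Its changes at 40 h were 0.55 ± 0.04 (adjusted p = 4.9e-27) in 2i/LIF cells and -0.25 ± 0.04 (adjusted p = 2.8e-09) in those from serum/LIF+2i. Pgk1, which makes the first ATP of the pathway, read 47.9 and 48.8 CPM at 0 h, 42.1 and 35.6 at 12 h, 48.5 and 50.8 at 24 h and 68.01 and 74.1 at 40 h in 2i/LIF. Pgk1 from serum/LIF+2i read 58.5 and 55.1 CPM at 0 h, 45.4 and 44.9 at 12 h, 37.3 and 36.6 at 24 h and 34.2 and 41.2 at 40 h. At 40 h its changes were 0.55 ± 0.08 (adjusted p = 3.0e-09) in 2i/LIF cells and -0.60 ± 0.08 (adjusted p = 2.3e-10) in those from serum/LIF+2i. The mutase Pgam1 read 37.2 and 42.5 CPM at 0 h, 36.6 and 42.5 at 12 h, 44.01 and 43.2 at 24 h and 50.3 and 52.2 at 40 h in 2i/LIF. Pgam1 from serum/LIF+2i read 75.2 and 58.01 CPM at 0 h, 54.7 and 57.6 at 12 h, 49.6 and 44.8 at 24 h and 47.4 and 48.7 at 40 h. Its log2 fold changes were 0.36 ± 0.10 (adjusted p = 6.2e-04) in 2i/LIF cells and -0.47 ± 0.08 (adjusted p = 1.5e-07) in those from serum/LIF+2i. In each of these 4 genes, the 40 h libraries lay above those of 0 h in 2i/LIF and below them in serum/LIF+2i.

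Eno1, the main enolase gene, and the pyruvate kinase gene Pkm serve the last steps and rose in both media, but much more in 2i/LIF. Eno1 read 338 and 338 CPM at 0 h, 375 and 345 at 12 h, 523 and 502 at 24 h and 844 and 774 at 40 h in 2i/LIF. Eno1 from serum/LIF+2i read 482 and 517 CPM at 0 h, 443 and 432 at 12 h, 442 and 453 at 24 h and 548 and 552 at 40 h. Its changes at 40 h were 1.26 ± 0.04 (adjusted p = 8.3e-53) in 2i/LIF cells and 0.14 ± 0.04 (adjusted p = 7.2e-04) in those from serum/LIF+2i, and the small rise in serum/LIF+2i was lost without replicate 1 of 0 h (0.09, adjusted p = 0.074). Pkm, whose 2 splice forms are not resolved by gene counts, read 1709.7 and 1719.6 CPM at 0 h, 1714 and 1711 at 12 h, 2342 and 2289.8 at 24 h and 3140.2 and 3038 at 40 h in 2i/LIF. Pkm from serum/LIF+2i read 2297 and 2169 CPM at 0 h, 1894 and 1922 at 12 h, 2001 and 2045 at 24 h and 2583 and 2537 at 40 h. At 40 h it was 0.85 ± 0.03 (adjusted p = 1.8e-49) in 2i/LIF cells and 0.20 ± 0.03 (adjusted p = 2.7e-08) in those from serum/LIF+2i. Pkm and Aldoa were the highest of the 34 per length in both media at 0 and 40 h, with Pkm at 659.7 ± 2.69 RPKM (SD, n = 2) at 0 h and 1189 ± 27.9 RPKM at 40 h in 2i/LIF.

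The minor isozymes of these steps are tissue-restricted forms elsewhere in the body. Eno3, the muscle enolase, read 13.3 and 13.4 CPM at 0 h, 15.9 and 17.1 at 12 h, 34.8 and 36.6 at 24 h and 38.6 and 39.1 at 40 h in 2i/LIF. Eno3 from serum/LIF+2i read 14.4 and 13.2 CPM at 0 h, 25.3 and 25.4 at 12 h, 47.8 and 45.2 at 24 h and 50.1 and 47.03 at 40 h. Its log2 fold changes were 1.54 ± 0.12 (adjusted p = 1.1e-22) in 2i/LIF cells and 1.81 ± 0.11 (adjusted p = 6.3e-32) in those from serum/LIF+2i, and its share of the enolases went from 4.36 and 4.39% at 0 h to 7.20 and 7.83% at 24 h and 5.06 and 5.56% at 40 h for 2i/LIF. For serum/LIF+2i that share was 3.36 and 2.88% at 0 h, 11.1 and 10.4% at 24 h and 9.52 and 8.95% at 40 h. Eno2, the neuronal enolase, read 3.27 and 3.19 CPM at 0 h, 1.51 and 1.74 at 12 h, 2.78 and 2.89 at 24 h and 3.38 and 5.30 at 40 h in 2i/LIF. Eno2 from serum/LIF+2i read 4.85 and 5.43 CPM at 0 h, 3.78 and 2.98 at 12 h, 4.87 and 6.01 at 24 h and 12.1 and 10.7 at 40 h. It was lower at 12 h in both media by calls that DESeq2 did not make, and higher at 40 h in serum/LIF+2i (1.15 ± 0.20, adjusted p = 2.9e-07), with 0.41 ± 0.30 (adjusted p = 2.2e-01) in 2i/LIF. The summed level of 4 neural markers also stood higher at 40 h in serum/LIF+2i, at 51.7 to 56.5 CPM against 27.2 to 32.3 CPM. Of these 4 markers, 2 passed the filter and 1 was called higher there than in 2i/LIF at 40 h. Their part in the Eno2 level was not tested. Aldoc, the brain-type aldolase, read 39.5 and 34.5 CPM at 0 h, 13.4 and 12.8 at 12 h, 14.6 and 13.8 at 24 h and 20.4 and 24.5 at 40 h in 2i/LIF. Aldoc from serum/LIF+2i read 34.5 and 24.7 CPM at 0 h, 13.7 and 12.6 at 12 h, 10.2 and 10.7 at 24 h and 15.6 and 13.5 at 40 h. It was lower at 40 h, -0.72 ± 0.12 (adjusted p = 5.4e-08) in 2i/LIF cells and -1.02 ± 0.12 (adjusted p = 1.3e-12) in those from serum/LIF+2i, and Aldoa and Aldoc kept shares of 97.1% or more and 2.92% or less. Eno1 held 88.2% or more of the enolases in every library.

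Gapdh, often used as a reference gene, was listed at 15.8 to 34.6 CPM, or 13.7 ± 1.22 RPKM (SD, n = 2) at 0 h in 2i/LIF against 762 ± 13.7 RPKM for Aldoa, and was not called at any of the 3 times in either medium. Its replicates were apart in serum/LIF+2i, at 33.5 and 22.03 CPM at 0 h and 34.6 and 18.7 at 12 h. The change of -0.55 ± 0.28 at 40 h in serum/LIF+2i (adjusted p = 1.0e-01) was called when either 12 h library of that medium was left out (adjusted p = 1.8e-05 and 1.7e-05), without replicate 2 of 0 h (0.012), with the replicate number as a block (0.042) and without the filter (0.014). Gapdh shares much of its sequence: 82.5% of the 50-base stretches of its longest GENCODE coding transcript occur in other annotated genes, and whether the counting kept reads with several matches is not given in the sources used here.

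The same measure was 72.2% for Eno1, 67.96% for Pgk1, 41.5% for Pgam1, 34.4% for Pkm, 30.3% for Pdhb, 29.6% for Mpc1, 27.01% for Ldhb and 25.3% for Gpi1. It was 25.1% for Pfkfb2, 17.1% for Pfkp, 16.9% for Pdha1, 16.6% for Ldha and 13.5% for Aldoa, and under 10% for the other 20 genes. Levels of these 14 genes against others are uncertain. The 14 include Pgk1, Pgam1, Ldha and Aldoa, which were called higher in 2i/LIF and lower in serum/LIF+2i at 40 h. Tpi1, the other gene called in that way, had 7.51%. Among the 20 genes under 10%, 10 were called higher and 7 lower at 40 h in 2i/LIF, beside 34.1% and 34.7% of all genes tested. The counts from serum/LIF+2i were 9 higher and 9 lower, beside 35.3% and 35.3%. The copy Eno1b had a row of its own with 911 to 3145 counts per library, Aldoart1 had 257 to 570 and Aldoart2 25 to 63, so reads could be split between them and Eno1 or Aldoa. Exons of Pfkp, Pfkm, Pfkfb1, Aldoa, Tpi1, Gapdh and Pdha1 overlap a coding gene on the other strand, and how the counting used strand is not given in the sources used here. On their own strand, exons of Pfkm overlap those of Gm26513 and exons of Pkm those of Gm49759.

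Lactate dehydrogenase turns pyruvate into lactate and back; the A subunit is the form of glycolytic tissue and the B subunit that of oxidative tissue. Ldha (chr7:46842274-46855627) read 439.6 and 454 CPM at 0 h, 330.0 and 328 at 12 h, 512 and 520.5 at 24 h and 1395 and 1289.8 at 40 h in 2i/LIF. Ldha from serum/LIF+2i read 1268 and 1173 CPM at 0 h, 786 and 821 at 12 h, 645 and 648 at 24 h and 968 and 964 at 40 h. In 2i/LIF it fell to 12 h and then rose, to 1.59 ± 0.04 (adjusted p = 1.2e-69) at 40 h. From its higher start in serum/LIF+2i it fell to 24 h and regained part, to -0.34 ± 0.04 (adjusted p = 1.5e-15) at 40 h. Ldhb read 228 and 236 CPM at 0 h, 174 and 169.9 at 12 h, 183 and 189 at 24 h and 131 and 123 at 40 h in 2i/LIF. Ldhb from serum/LIF+2i read 128 and 138 CPM at 0 h, 84.6 and 92.1 at 12 h, 89.3 and 84.3 at 24 h and 61.9 and 62.03 at 40 h. It was lower at 40 h in both, -0.87 ± 0.05 (adjusted p = 3.2e-32) in 2i/LIF cells and -1.10 ± 0.06 (adjusted p = 2.8e-36) in those from serum/LIF+2i. Ldha held 56.3 and 56.2% at 0 h, 55.9 and 56.4% at 12 h, 65.2 and 64.8% at 24 h and 87.7 and 87.6% at 40 h of the pair in 2i/LIF. From serum/LIF+2i its share was 86.8 and 85.1% at 0 h, 86.1 and 85.6% at 12 h, 82.9 and 83.7% at 24 h and 91.3 and 91.2% at 40 h. At 0 h the share of Ldhb was 43.7 and 43.8% in 2i/LIF against 13.2 and 14.9% in serum/LIF+2i, and at 40 h 12.3 and 12.4% against 8.73 and 8.79%. The sum of the pair went from 411 ± 9.39 to 794 ± 43.1 RPKM in 2i/LIF and from 736 ± 29.7 to 548 ± 1.59 RPKM in serum/LIF+2i. The 150 bases printed above, before 1 of the 2 listed Ldha starts, hold 2 copies of CACGTG.

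Monocarboxylate transporters carry lactate and pyruvate with a proton; MCT1 (Slc16a1) works in both directions and MCT4 (Slc16a3) is the exporter of strongly glycolytic cells. Slc16a3 (chr11:120948484-120959000) had the largest rise of the 34 genes in 2i/LIF. It read 14.1 and 13.1 CPM at 0 h, 18.6 and 24.6 at 12 h, 167 and 167 at 24 h and 276 and 249 at 40 h there. Slc16a3 from serum/LIF+2i read 33.4 and 25.1 CPM at 0 h, 52.8 and 47.9 at 12 h, 175 and 168 at 24 h and 154 and 156 at 40 h. Most of the rise fell between 12 and 24 h, with steps of 2.94 ± 0.08 (adjusted p = 1.6e-44) in 2i/LIF and 1.77 ± 0.07 (adjusted p = 2.0e-37) in serum/LIF+2i. It rose further to 40 h in 2i/LIF (0.66 ± 0.05, adjusted p = 5.3e-18). The step of -0.15 in serum/LIF+2i, which was called, was lost with DESeq2 (adjusted p = 0.17), with library size as the only scaling (0.088), without replicate 1 of 24 h (0.12) and without replicate 1 of 40 h (0.067). At 40 h the log2 fold change was 4.27 ± 0.09 (adjusted p = 7.9e-55) in 2i/LIF cells and 2.40 ± 0.08 (adjusted p = 3.1e-42) in those from serum/LIF+2i.

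Slc16a1 read 171 and 189.7 CPM at 0 h, 146 and 160.2 at 12 h, 215 and 221 at 24 h and 255 and 253 at 40 h in 2i/LIF. Slc16a1 from serum/LIF+2i read 188 and 189 CPM at 0 h, 171 and 157 at 12 h, 205 and 194 at 24 h and 228 and 215 at 40 h. After a dip at 12 h in both media it was higher at 40 h, 0.49 ± 0.05 (adjusted p = 1.3e-16) in 2i/LIF cells and 0.23 ± 0.05 (adjusted p = 5.2e-06) in those from serum/LIF+2i. The share of Slc16a3 in the pair was 12.4 and 10.6% at 0 h, 18.03 and 20.9% at 12 h, 57.1 and 56.4% at 24 h and 65.1 and 62.8% at 40 h in 2i/LIF. The Slc16a3 share from serum/LIF+2i was 23.3 and 18.6% at 0 h, 34.7 and 34.3% at 12 h, 59.4 and 59.9% at 24 h and 53.7 and 55.4% at 40 h. Per kilobase, Slc16a1 led in all libraries up to 12 h and Slc16a3 in all 8 at 24 and 40 h. This order rests on the deposited gene lengths. By mean CPM, Slc16a1 stayed above Slc16a3 at 24 h, at 218 against 167 in 2i/LIF and 199 against 171 from serum/LIF+2i. It did so at 40 h from serum/LIF+2i as well (221 against 155), and in 2i/LIF the 40 h libraries of the 2 genes overlapped. Their sum went from 46.02 ± 2.70 to 159 ± 7.76 RPKM and from 53.9 ± 2.18 to 110.0 ± 1.47 RPKM.

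PDK kinases phosphorylate pyruvate dehydrogenase and so hold pyruvate back from oxidation. Pdk1 (chr2:71873215-71903858) read 65.8 and 66.5 CPM at 0 h, 147 and 147 at 12 h, 242 and 252 at 24 h and 339 and 364 at 40 h in 2i/LIF. Pdk1 from serum/LIF+2i read 52.6 and 41.1 CPM at 0 h, 110.0 and 119.6 at 12 h, 213 and 203 at 24 h and 214 and 218 at 40 h. It rose at each step in 2i/LIF, and up to 24 h from serum/LIF+2i, after which the change of 0.05 ± 0.05 was not called (adjusted p = 3.8e-01). At 40 h its log2 fold change was 2.41 ± 0.06 (adjusted p = 1.6e-61) in 2i/LIF cells and 2.20 ± 0.06 (adjusted p = 1.4e-55) in those from serum/LIF+2i. Pdk3 read 41.4 and 41.2 CPM at 0 h, 45.9 and 38.2 at 12 h, 44.01 and 44.5 at 24 h and 54.1 and 51.1 at 40 h in 2i/LIF. Pdk3 from serum/LIF+2i read 37.5 and 34.8 CPM at 0 h, 39.7 and 35.8 at 12 h, 39.4 and 39.4 at 24 h and 36.97 and 43.1 at 40 h. Its change at 40 h was 0.35 ± 0.09 (adjusted p = 3.7e-04) in 2i/LIF cells and 0.14 ± 0.09 (adjusted p = 1.6e-01) in those from serum/LIF+2i. Pdk1 held 34.1 and 34.2% at 0 h, 51.9 and 55.1% at 12 h, 65.2 and 66.6% at 24 h and 68.6 and 71.3% at 40 h of the 4 kinases in 2i/LIF. The Pdk1 share from serum/LIF+2i was 30.4 and 26.4% at 0 h, 48.1 and 51.7% at 12 h, 65.6 and 63.8% at 24 h and 66.3 and 64.2% at 40 h. Per kilobase, Pdk3 led at 0 h with 55.004 and 54.4% and 55.7 and 57.5%, and Pdk1 led in every library from 12 h on. By mean CPM, Pdk1 was above Pdk3 already at 0 h, at 66.2 against 41.3 in 2i/LIF and 46.9 against 36.1 from serum/LIF+2i. The sum of the 4 went from 37.7 ± 0.166 to 97.8 ± 2.27 RPKM and from 31.98 ± 2.38 to 64.4 ± 2.36 RPKM.

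Pdk4, the isozyme induced by fasting in other tissues, read 7.07 and 8.35 CPM at 0 h, 5.21 and 7.75 at 12 h, 4.86 and 3.34 at 24 h and 1.75 and 2.58 at 40 h in 2i/LIF. Pdk4 from serum/LIF+2i read 5.88 and 6.32 CPM at 0 h, 4.32 and 4.26 at 12 h, 2.32 and 4.38 at 24 h and 3.10 and 2.03 at 40 h. It was lower at 40 h, -1.84 ± 0.30 (adjusted p = 3.2e-08) in 2i/LIF cells and -1.23 ± 0.27 (adjusted p = 3.5e-05) in those from serum/LIF+2i. Pdk2 read 4.65 and 4.25 CPM at 0 h, 4.66 and 4.41 at 12 h, 3.89 and 3.19 at 24 h and 5.89 and 5.16 at 40 h in 2i/LIF. Pdk2 from serum/LIF+2i read 6.76 and 6.90 CPM at 0 h, 4.60 and 5.96 at 12 h, 3.21 and 3.36 at 24 h and 3.96 and 3.48 at 40 h. It was lower at 40 h in serum/LIF+2i (-0.87 ± 0.23, adjusted p = 5.9e-04), and its change of 0.32 ± 0.26 in 2i/LIF was not called (adjusted p = 2.8e-01). Neither kinase held more than 10.1% of the family in any library.

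The target of the kinases, the E1 part of pyruvate dehydrogenase, is made of Pdha1 and Pdhb. Pdha1 read 355 and 379.7 CPM at 0 h, 405 and 402 at 12 h, 309 and 317 at 24 h and 217 and 224 at 40 h in 2i/LIF. Pdha1 from serum/LIF+2i read 448 and 432 CPM at 0 h, 419 and 439 at 12 h, 239.9 and 237 at 24 h and 186 and 194 at 40 h. Its log2 fold changes at 40 h were -0.74 ± 0.04 (adjusted p = 1.2e-33) in 2i/LIF cells and -1.21 ± 0.04 (adjusted p = 2.2e-55) in those from serum/LIF+2i. Pdhb ranged from 109.6 to 167 CPM, was higher at 12 and 24 h in both media and was not called at 40 h, at -0.07 ± 0.06 (adjusted p = 2.8e-01) in 2i/LIF cells and 0.07 ± 0.05 (adjusted p = 2.6e-01) in those from serum/LIF+2i. The subunits of the pyruvate carrier of the inner membrane were low. Mpc2 ranged from 10.3 to 19.4 CPM and was lower at 40 h, -0.64 ± 0.16 (adjusted p = 2.1e-04) in 2i/LIF cells and -0.43 ± 0.15 (adjusted p = 6.6e-03) in those from serum/LIF+2i. The call in serum/LIF+2i was lost without replicate 1 of 0 h (adjusted p = 0.15), without replicate 2 of 40 h (0.098) and with DESeq2 (0.059). Mpc1 rested on 4 to 55 counts per library. It read 2.24 and 2.43 CPM at 0 h, 2.74 and 3.21 at 12 h, 2.08 and 2.58 at 24 h and 1.25 and 0.544 at 40 h in 2i/LIF. Mpc1 from serum/LIF+2i read 1.91 and 2.50 CPM at 0 h, 7.43 and 5.75 at 12 h, 1.66 and 2.65 at 24 h and 1.55 and 0.871 at 40 h. Its changes were -1.35 ± 0.48 (adjusted p = 1.0e-02) in 2i/LIF cells and -0.83 ± 0.41 (adjusted p = 6.3e-02) in those from serum/LIF+2i, of which that in 2i/LIF was lost without replicate 2 of 0 h (adjusted p = 0.058) or of 40 h (0.14). A copy, Mpc1-ps, had a row of its own with 28 to 176 counts.

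Media were compared at each time. At 0 h, 18 of the 34 genes were called, 13 with more RNA in serum/LIF+2i and 5 with less, beside 33% of all genes tested (14.6% and 18.4% by direction). Ldha led, at 1268 and 1173 CPM against 439.6 and 454 (1.45 ± 0.04, adjusted p = 2.2e-63), followed by Slc16a3 (1.11 ± 0.14, adjusted p = 2.6e-10), Pfkl (0.98 ± 0.05, adjusted p = 6.3e-32), Pgam1 (0.73 ± 0.09, adjusted p = 1.3e-10), Pfkp (0.61 ± 0.04, adjusted p = 4.9e-24) and Eno1 (0.56 ± 0.04, adjusted p = 6.5e-23). Ldhb (-0.80 ± 0.05, adjusted p = 1.5e-27), Pfkfb2 (-0.50), Pdk1 (-0.50), Hk1 (-0.47) and Aldoc (-0.32) were lower. Of these calls, 3 depended on single libraries. Slc2a1 was lost without replicate 1 of 2i/LIF (adjusted p = 0.31) or of serum/LIF+2i (0.41). Pgk1 was lost without either 0 h library of 2i/LIF (0.15 and 0.11) or replicate 1 of serum/LIF+2i (0.19). Aldoc, whose libraries overlapped between media, was lost without replicate 1 of 2i/LIF (0.25) or replicate 2 of serum/LIF+2i (0.63), at -0.10 in the latter. DESeq2 called none of these 3 genes (adjusted p = 0.11, 0.16 and 0.17).

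At 12 h, 19 of the 34 genes differed, 12 higher and 7 lower in that medium, beside 30.3% of all genes (14.8% and 15.5%). The balance changed at 24 h, when 19 differed, 4 higher and 15 lower, beside 31.1% (14.1% and 17%), and at 40 h, when 21 differed, 3 higher and 18 lower, beside 27.3% (13.9% and 13.4%). Together, 11 genes were called higher in serum/LIF+2i at 0 h and lower there at 40 h: Slc2a1, Slc2a3, Pfkl, Aldoa, Tpi1, Pgk1, Eno1, Pkm, Ldha, Slc16a3 and Pdha1. Over all genes tested, 2.2% did so. The calls of 8 of the 11 held at both times with DESeq2 and with each library left out in turn; Slc2a1 and Pgk1 lost the call at 0 h, and Slc2a3 that at 40 h. None of the 34 went from lower to higher, beside 2.71% of all genes. Lower in serum/LIF+2i at 40 h by the most were Ldhb (-1.03 ± 0.06, adjusted p = 2.2e-32), Pgk1 (-0.92 ± 0.08, adjusted p = 1.6e-19), Slc16a3 (-0.76 ± 0.05, adjusted p = 1.2e-21) and Pdk1 (-0.70 ± 0.04, adjusted p = 6.0e-26). Eno2 (1.41 ± 0.20, adjusted p = 1.1e-08), Eno3 (0.32 ± 0.08, adjusted p = 1.4e-03) and Pfkp (0.18 ± 0.05, adjusted p = 2.8e-03) were higher in serum/LIF+2i. The small difference of Slc2a3 (-0.10) was lost without replicate 2 of 2i/LIF or replicate 1 of serum/LIF+2i (adjusted p = 0.12 and 0.28), with DESeq2 (0.066), with library size as the only scaling (0.12) and without the filter (0.054), and that of Pfkp without replicate 1 of 2i/LIF (0.072).

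**Figure D5:**
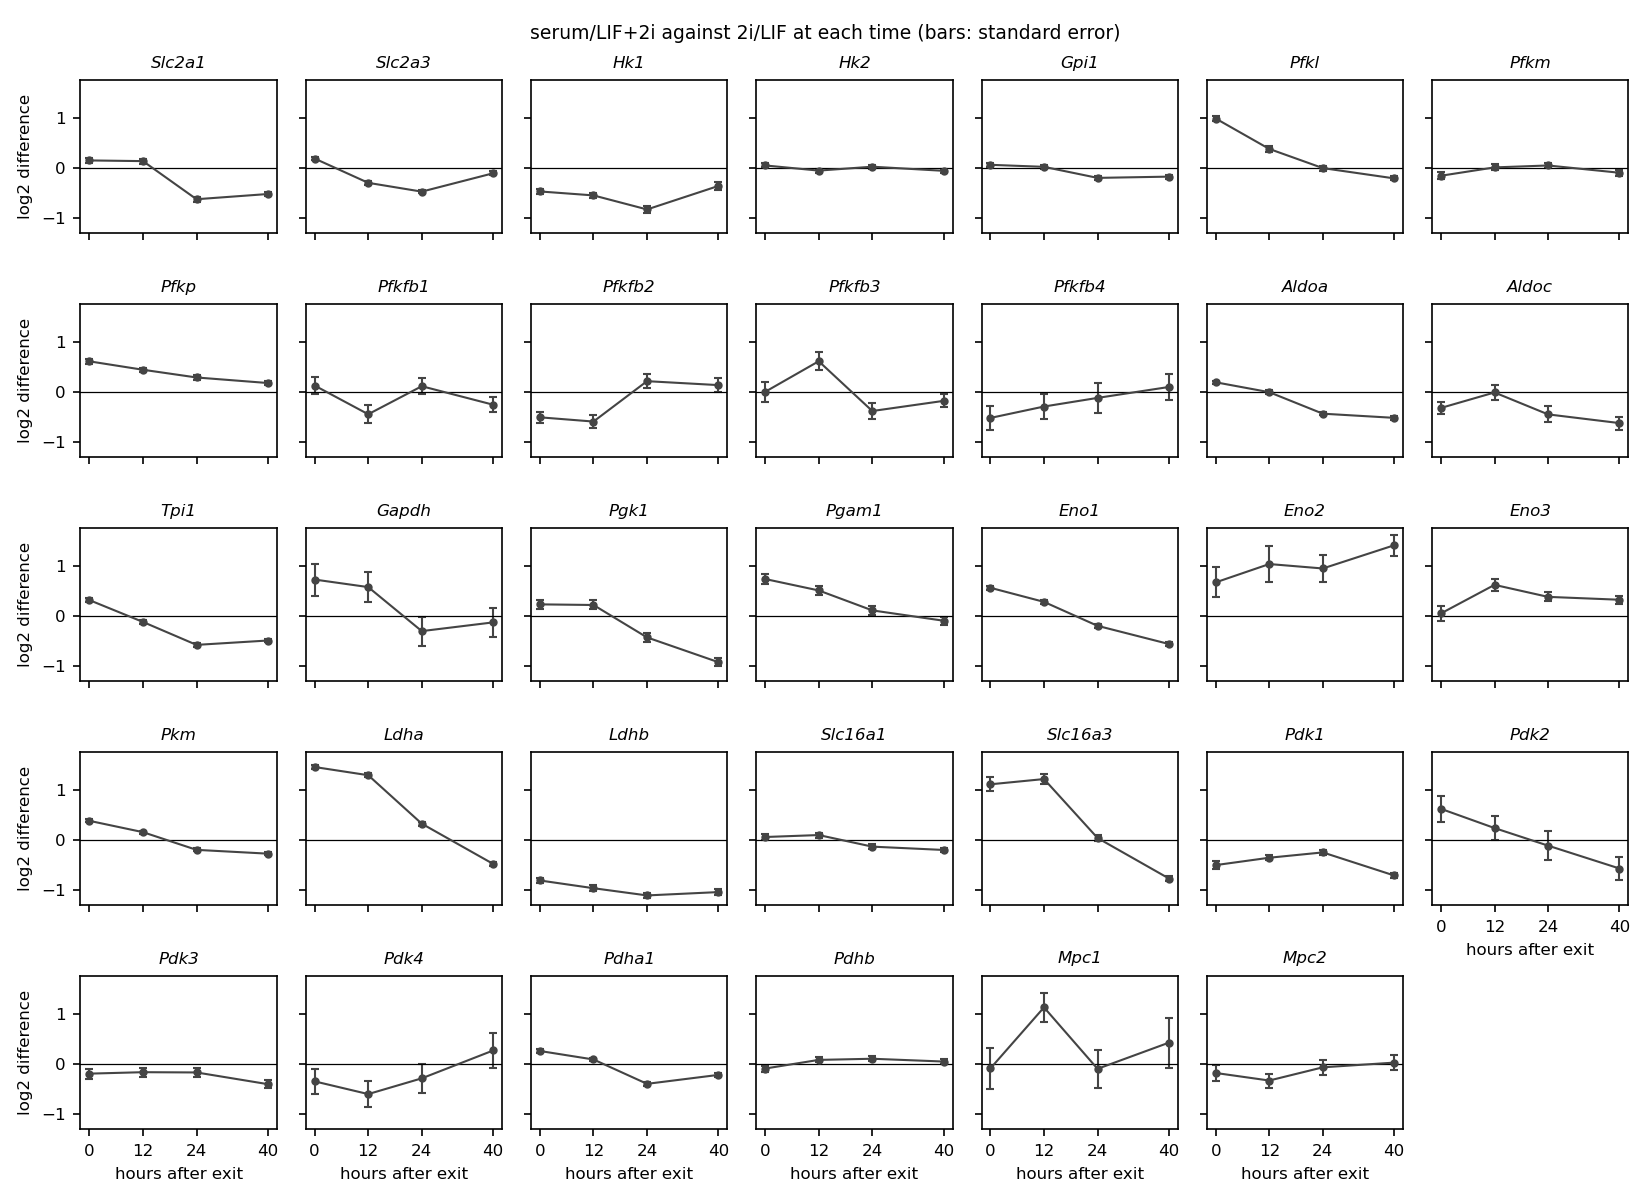
Log2 difference of serum/LIF+2i against 2i/LIF at 0, 12, 24 and 40 h for each of the 34 genes, in pathway order; points are the fitted differences, bars the standard error, and the line at 0 marks equal levels. The fitted difference of 19 genes, called or not, is above 0 at 0 h and below 0 at 40 h, that of 6 goes the other way, and 3 stay above and 6 below, among them Pfkp above and Hk1 and Ldhb below.

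Whether an exit effect differed between media was tested as an interaction, the exit effect in serum/LIF+2i minus that in 2i/LIF. It was called for 8 of the 34 genes at 12 h (0 higher, 8 lower), beside 9.2% of all genes (4.8% and 4.4% by direction); with DESeq2 size factors the split at 12 h was 1 higher and 8 lower. At 24 h it was called for 19 (2 higher, 17 lower), beside 20.8% (9.77% and 11%), and at 40 h for 18 (1 higher, 17 lower), beside 27.6% (14.8% and 12.8%). The median difference of the 34 genes was -0.27 at 40 h, against 0.02 over all genes tested. Ldha had the largest difference, -1.92 ± 0.05 (adjusted p = 6.3e-62). After it came Slc16a3 (-1.87 ± 0.14, adjusted p = 3.3e-18), Pfkl (-1.19 ± 0.07, adjusted p = 6.8e-30), Pdk2 (-1.18 ± 0.35, adjusted p = 5.7e-03), Pgk1 (-1.15 ± 0.12, adjusted p = 7.3e-15) and Eno1 (-1.12 ± 0.05, adjusted p = 6.9e-34). Pgam1 (-0.83), Tpi1 (-0.80), Aldoa (-0.71), Slc2a1 (-0.67) and Pkm (-0.65) were also lower. Pfkfb2 was the only gene with a positive call, 0.64 ± 0.17 (adjusted p = 2.3e-03). Of the 20 genes with under 10% of 50-base stretches in other genes, 7 were called lower at 40 h and 0 higher, and of the other 14, 10 lower and 1 higher. The difference for Ldhb (-0.23) was lost without replicate 1 of either time in 2i/LIF (adjusted p = 0.076 and 0.12), replicate 2 of 0 h in serum/LIF+2i (0.13) or replicate 1 of 40 h there (0.059), and with DESeq2 (0.11). That for Slc16a1 (-0.26) was lost without replicate 1 of 0 h in 2i/LIF (0.065), and that for Pdk2 with DESeq2 (0.056). All interactions share the 0 h libraries of each medium, and those libraries differed as described above.

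Of the genes called with a change of at least 1 in both media at 40 h, those with no called interaction were Hk1 (0.11 ± 0.09, adjusted p = 4.0e-01), Pdk1 (-0.21 ± 0.09, adjusted p = 7.9e-02), Eno3 (0.27 ± 0.18, adjusted p = 2.7e-01) and Pdk4 (0.61 ± 0.42, adjusted p = 2.9e-01). Pdk1 was called without replicate 1 of 40 h in 2i/LIF (-0.26, adjusted p = 0.033) and without replicate 2 of 0 h in serum/LIF+2i (-0.37, adjusted p = 0.0018).

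Genes next to the core steps were counted from lists chosen by function; at 40 h, 34.1% of all genes were called higher and 34.7% lower in 2i/LIF, and 35.3% and 35.3% from serum/LIF+2i, against which these counts are to be read. Of 20 further glycolysis and glucose genes tested, 7 were higher and 5 lower at 40 h in 2i/LIF, and 8 higher and 7 lower from serum/LIF+2i. Emb, a partner protein of monocarboxylate transporters, had log2 fold changes of 2.60 and 2.20 (adjusted p = 6.7e-62 and 7.4e-52), and Bsg, the partner of MCT1 and MCT4, -0.38 and -0.47 (adjusted p = 2.1e-14 and 7e-20). Tigar, a phosphatase that lowers the activator made by PFKFB enzymes, had -1.74 and -1.94 (adjusted p = 9.2e-49 and 3.3e-59). Of 13 further pyruvate genes, 8 were higher and 3 lower, then 7 and 2. The mitochondrial PEP carboxykinase Pck2 had 0.86 and 1.43 (adjusted p = 6e-20 and 1.2e-31), and Pdp2, a phosphatase that reverses the PDK kinases, -1.92 and -1.42 (adjusted p = 1.2e-46 and 6.6e-35). Of the 7 genes of the pentose phosphate pathway, 3 were higher and 4 lower, then 2 and 3, with Rpe at -0.92 and -1.26 (adjusted p = 1.3e-26 and 8.5e-42). Of the 20 genes of the TCA cycle, which oxidises the acetyl-CoA made from pyruvate, 4 were higher and 12 lower in 2i/LIF, and 3 higher and 15 lower from serum/LIF+2i. Their median log2 fold change was -0.23 and -0.25, against 0.0052 and -0.0032 over all genes. Idh2 had -1.56 and -1.89 (adjusted p = 3.4e-58 and 2.3e-67), while Suclg2 had 0.81 and 1.33 (adjusted p = 3.7e-10 and 7.5e-21).

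Of 21 known regulators of the pathway, 11 were called higher and 7 lower in each medium, beside 34.1% and 34.7% of all genes for 2i/LIF and 35.3% and 35.3% for serum/LIF+2i. Lin28a, an RNA-binding protein known to affect metabolic enzymes, had log2 fold changes of 3.42 and 2.91 (adjusted p = 3e-97 and 1.8e-93). Myc, which activates many glycolytic genes, had 2.69 and 3.999 (adjusted p = 3.6e-41 and 2e-62). Esrrb, a naive factor known to drive oxidative genes, had -4.61 and -5.87 (adjusted p = 1.4e-107 and 6.9e-116). Prkaa2, a catalytic subunit of AMP-activated kinase, had -1.50 and -1.52 (adjusted p = 2.5e-24 and 4.5e-31). Of 14 HIF targets outside glycolysis, 5 were higher and 6 lower in 2i/LIF, and 5 higher and 7 lower from serum/LIF+2i. Bnip3 had 2.72 and 1.19 (adjusted p = 3.7e-41 and 8.6e-19) and Vegfa 0.85 and 1.53 (adjusted p = 1.3e-16 and 4.4e-38). Ak4 had -3.21 and -3.30 (adjusted p = 1.6e-80 and 8.9e-86), and Kdm3a -1.70 and -1.21 (adjusted p = 1.7e-66 and 1.8e-53).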

How the data were processed

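RNA was extracted with TRIzol and made into TruSeq stranded mRNA libraries, per the labels' protocols. The submitters' processing notes name fastp, STAR, featureCounts and mm10, without versions; strand setting, treatment of reads with several matches and annotation are not given in the sources used here. The authors deposited a table of raw counts per gene with Entrez identifier, symbol and gene length, per the file headers; the columns hold whole numbers with different totals, and 0 columns were left unmapped. Titles gave group and replicate; titles with 12 h exist for both media, although the protocol lists 24 and 40 h for serum/LIF+2i, and the titles were followed.

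Genes were filtered with filterByExpr (minimum count 10, minimum total 15) and scaled by TMM. All 16 libraries were fitted in edgeR 4.0.16 (R 4.3.3, limma 3.58.1; 8 residual degrees of freedom, common biological coefficient of variation 3.19%), robust quasi-likelihood F test. The 17 comparisons were 6 exit effects, 4 steps, 4 between media and 3 interactions. Shares used counts divided by the deposited gene length; adjustment ran over the 24 shares (SciPy 1.17.1). The largest floor of 3 counts was 0.517 CPM, for counting error only. DESeq2 1.42.0 and other scalings, filters, a replicate block and leaving out libraries were alternatives. The edgeR and DESeq2 fits were tested on simulated counts. Positions and promoters are from RefSeq (GRCm38.p6), matched by Entrez identifier for 34 and 33 genes.

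Named genes were those called at 40 h with a log2 fold change of at least 1, called between media at 0 or 40 h or in the 40 h interaction with at least 0.58, or in a family with a share moving by 10 points; the other genes are given by ranges, and from each further list up to 2 per direction with the smallest adjusted p. The members and lists were chosen with earlier results of these data known.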

Additional observations from a re-analysis of the deposited data

Results flagged for a closer look

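Exit effects that differed between the media by the test of the difference itself are given here as the log2 effect in serum/LIF+2i minus that in 2i/LIF (edgeR, adjusted over 14288 genes). Groups of 2 libraries are too small to test for a library that stands apart. At 12 h the genes were Slc2a3 (-0.48), Pfkl (-0.60), Aldoa (-0.20), Tpi1 (-0.43), Eno1 (-0.28), Pkm (-0.22), Ldha (-0.16) and Pdha1 (-0.17). At 24 h they were Slc2a1 (-0.77), Slc2a3 (-0.66), Hk1 (-0.36), Gpi1 (-0.26), Pfkl (-0.98), Pfkp (-0.32), Pfkfb2 (0.72), Aldoa (-0.62), Tpi1 (-0.89), Pgk1 (-0.66), Pgam1 (-0.62), Eno1 (-0.76), Pkm (-0.58), Ldha (-1.13), Ldhb (-0.30), Slc16a1 (-0.19), Slc16a3 (-1.07), Pdk1 (0.25) and Pdha1 (-0.65). At 40 h they were Slc2a1 (-0.67), Slc2a3 (-0.29), Gpi1 (-0.23), Pfkl (-1.19), Pfkp (-0.43), Pfkfb2 (0.64), Aldoa (-0.71), Tpi1 (-0.80), Pgk1 (-1.15), Pgam1 (-0.83), Eno1 (-1.12), Pkm (-0.65), Ldha (-1.92), Ldhb (-0.23), Slc16a1 (-0.26), Slc16a3 (-1.87), Pdk2 (-1.18) and Pdha1 (-0.47). Negative values were the majority at each time, and the positive ones were Pfkfb2 and Pdk1 at 24 h and Pfkfb2 at 40 h. Ldha, Slc2a3, Pfkl, Aldoa, Tpi1, Eno1, Pkm and Pdha1 were among them at all 3 times. The later times share the same 0 h libraries, so they are not independent of each other, and the change of medium at exit differed between the arms. Which of the media is involved was not tested.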

How the results depend on the processing

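Counts of called genes among the 34 stayed within 1.5 times the reported count under DESeq2, both other scalings, both other filters, the replicate block, the fit without ribosomal RNA genes, scaling factors made without the 34 genes, and with any library left out. They changed when a minimum log2 fold change of 0.58 was tested, by the construction of that test: the counts were then 6, 8 and 17 for the exit effects at 12, 24 and 40 h of 2i/LIF cells, 10, 12 and 14 for those from serum/LIF+2i, 5 and 7 for the steps from 12 to 24 h and 24 to 40 h of the former, 8 and 5 of the latter, 4, 3, 2 and 5 between media at 0, 12, 24 and 40 h, and 0, 5 and 7 for the interactions at 12, 24 and 40 h. Leaving out each library in turn gave 17 to 20, 23 to 26 and 28 to 29 for the exit effects at 12, 24 and 40 h of 2i/LIF cells, 24 to 26, 25 to 28 and 27 to 31 for those from serum/LIF+2i, 18 to 23 and 20 to 26 for the steps from 12 to 24 h and 24 to 40 h of the former, 18 to 23 and 18 to 20 of the latter, 15 to 19, 16 to 20, 15 to 19 and 20 to 21 between media at 0, 12, 24 and 40 h, and 6 to 9, 18 to 20 and 16 to 20 for the interactions at 12, 24 and 40 h. DESeq2 gave 18, 24 and 29 for the exit effects at 12, 24 and 40 h of 2i/LIF cells, 23, 26 and 27 for those from serum/LIF+2i, 18 and 19 for the steps from 12 to 24 h and 24 to 40 h of the former, 18 and 19 of the latter, 15, 15, 16 and 20 between media at 0, 12, 24 and 40 h, and 6, 17 and 16 for the interactions at 12, 24 and 40 h. No fitted change of a called gene turned its direction under any of these. Same-numbered libraries did not deviate together over all genes tested (28 pairs of groups, correlations of -0.023 to 0.033, 0 over 0.1). That check cannot exclude a shared culture or batch that affects few genes. With the number as a block the counts were 19, 24 and 29 for the exit effects at 12, 24 and 40 h of 2i/LIF cells, 26, 27 and 30 for those from serum/LIF+2i, 22 and 26 for the steps from 12 to 24 h and 24 to 40 h of the former, 23 and 20 of the latter, 18, 19, 19 and 21 between media at 0, 12, 24 and 40 h, and 10, 19 and 18 for the interactions at 12, 24 and 40 h. Among isozyme shares, the mean difference between 40 and 0 h was reversed for Pfkl (-0.12 points) and Eno2 (-0.11) when 24 h stood in place of 40 h, for Pfkm without replicate 2 of 40 h from 2i/LIF (-0.017) or replicate 1 of 0 h from serum/LIF+2i (-0.14; range over left-out libraries -0.14 to 1.038), and for Pfkfb1 without replicate 1 of 40 h from serum/LIF+2i (-0.41; range -0.41 to 2.7). The cause was not tested. Depth limits Mpc1, Eno2, Pdk2, Pdk4 and Pfkfb4 most.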
